A study of Homo sapiens with 2 samples.

Results

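The Wnt ligands, their Frizzled receptors and the secreted antagonists of the SFRP and DKK families were examined in lung fibroblasts with and without knockdown of periostin. The 37 genes were all those named WNT, FZD, SFRP1 to SFRP5 or DKK1 to DKK4 through the RefSeq accession of their probe, out of 21743 genes named on the arrays. They comprised 19 Wnt ligands, 10 Frizzled receptors, 4 SFRP genes and 4 DKK genes, and were read by 43 probes. SFRP3 is listed under the symbol FRZB, lay outside this choice and is described with the other antagonists.

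RNA came from MRC-5, a long-used cell line of fibroblasts from human fetal lung. One culture had received control siRNA, and the other a periostin siRNA at 10 nM that was left on for 48 h, so that the siRNA was the labelled difference between them. The dose of the control siRNA used for the arrays was not given in the sources used here. Each condition was read by 1 single-colour Agilent array with 58717 probe spots, so differences between the arrays had no replicate check and no test was made. Fewer cells of a type and less RNA per cell cannot be told apart in such bulk RNA.

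Wnt proteins are lipid-modified secreted ligands that bind Frizzled receptors at the cell surface. Together with the co-receptors LRP5 and LRP6 they stabilise beta-catenin, which acts with TCF and LEF factors on target genes, whereas other Wnt proteins act through ROR and RYK receptors on cell polarity and calcium. SFRP proteins bind Wnt ligands outside the cell, and DKK1 and DKK2 bind the LRP co-receptors. In the lung the pathway is known for its part in branching, in fibroblast growth and in fibrosis.

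Knockdown of periostin went with a lower signal of DKK1, WNT16, DKK2 and FZD8, each by more than 3-fold, and with a higher signal of no family member by that much. DKK1 was 6.86-fold lower, WNT16 6.57-fold lower, DKK2 5.81-fold lower and FZD8 4.09-fold lower. FZD1 was next at 2.33-fold lower, and the other 16 measured genes lay within 2-fold. Among the 21 measured genes, 4 (19.0%) were lower by more than 3-fold, against 2.75% of the 16052 genes measured on the arrays. None of the 21 was higher by more than 3-fold, against 3.37% of all measured genes. At 2-fold the count was 5 lower (23.8%), against 6.42% of all measured genes, and 0 higher, against 7.97%. The median log2 ratio of periostin siRNA over control siRNA was -0.28 for the 21 genes and 0.06 for all measured genes, with 12 of the 21 below 0. When the arrays were scaled on their medians in place of the 75th percentile, every ratio shifted by -0.13, and 15 of the 21 lay below 0. WNT5A then passed 2-fold, at -1.04.

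Signals are the scanner's processed signals after each array was scaled to the same 75th percentile, and are in arbitrary units. The error given with a log2 ratio is propagated from the scanner software's error of the spots, and covers the spots of these 2 arrays only, not the spread between cultures. Across 667 probes printed 10 times, the pooled SD between spots of the log2 ratio was 0.12. It was 0.24 in the dimmest 134 of them and 0.05 in the brightest 133. POSTN, which encodes the targeted periostin, had a signal of 2638 on the control array and 280 after knockdown, which is a log2 ratio of -3.24 (spot error 0.20, 1 spot). Its signal was thus 9.43-fold lower on the array labelled periostin siRNA.

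All 10 lung fibroblast markers examined, among them COL1A1, DCN and VIM, were measured on both arrays, with a summed signal of 369333 with control siRNA and 326288 with periostin siRNA. VIM was the largest part of that sum (189263 and 174022). Of the 10 log2 ratios, 7 lay below 0 and 3 above, from -0.90 for PDGFRA to 0.83 for LUM. Of 8 epithelial markers, 4 were measured, and EPCAM was higher by more than 3-fold (34.6 and 135). KRT8 gave 751 and 1281, SFTPC 33.8 and 53.3 and SCGB1A1 104 and 110.2, while CDH1, KRT5, SFTPB and NKX2-1 were not well above background. The 8 summed to 932 on the control array and 1591 on the other, with KRT8 the largest part of both sums. A second KRT8 probe gave a log2 ratio of 0.08, against 0.77 for the one summed. Of 5 endothelial markers, 3 were measured, with PECAM1 and TIE1 not above background, and the 5 summed to 135 and 132. Among immune markers, PTPRC gave 17.6 and 25.1 and CD68 gave 1528 and 2451, CD3E was above background on the periostin siRNA array only (7.25 and 9.55), and LAPTM5 was not above background. Of 4 smooth muscle markers, 3 were measured, with ACTG2 at 7266 and 51724 and MYH11 not above background, and the 4 summed to 10573 and 60601. The part of the epithelial, immune and smooth muscle genes in the differences of the Wnt family genes was not tested.

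A total of 21 of the 37 genes gave a signal well above background on both arrays, namely 9 Wnt ligands, 8 Frizzled receptors, SFRP1 and 3 DKK genes. The other 16 were not well above background on either array, so no ratio is given for them. They were WNT1, WNT2, WNT7A, WNT7B, WNT8A, WNT8B, WNT9A, WNT9B, WNT10A, WNT11, FZD3, FZD10, SFRP2, SFRP4, SFRP5 and DKK4. Their probes and the dim second probe of WNT3A, 21 in all, had signals from 1.51 to 8.46. The lowest signal that the software placed well above background was 7.55 on the control array and 7.77 on the periostin siRNA array. For these genes a signal was not detectable with these probes, which does not show that the RNA was absent.

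**Figure D1:**
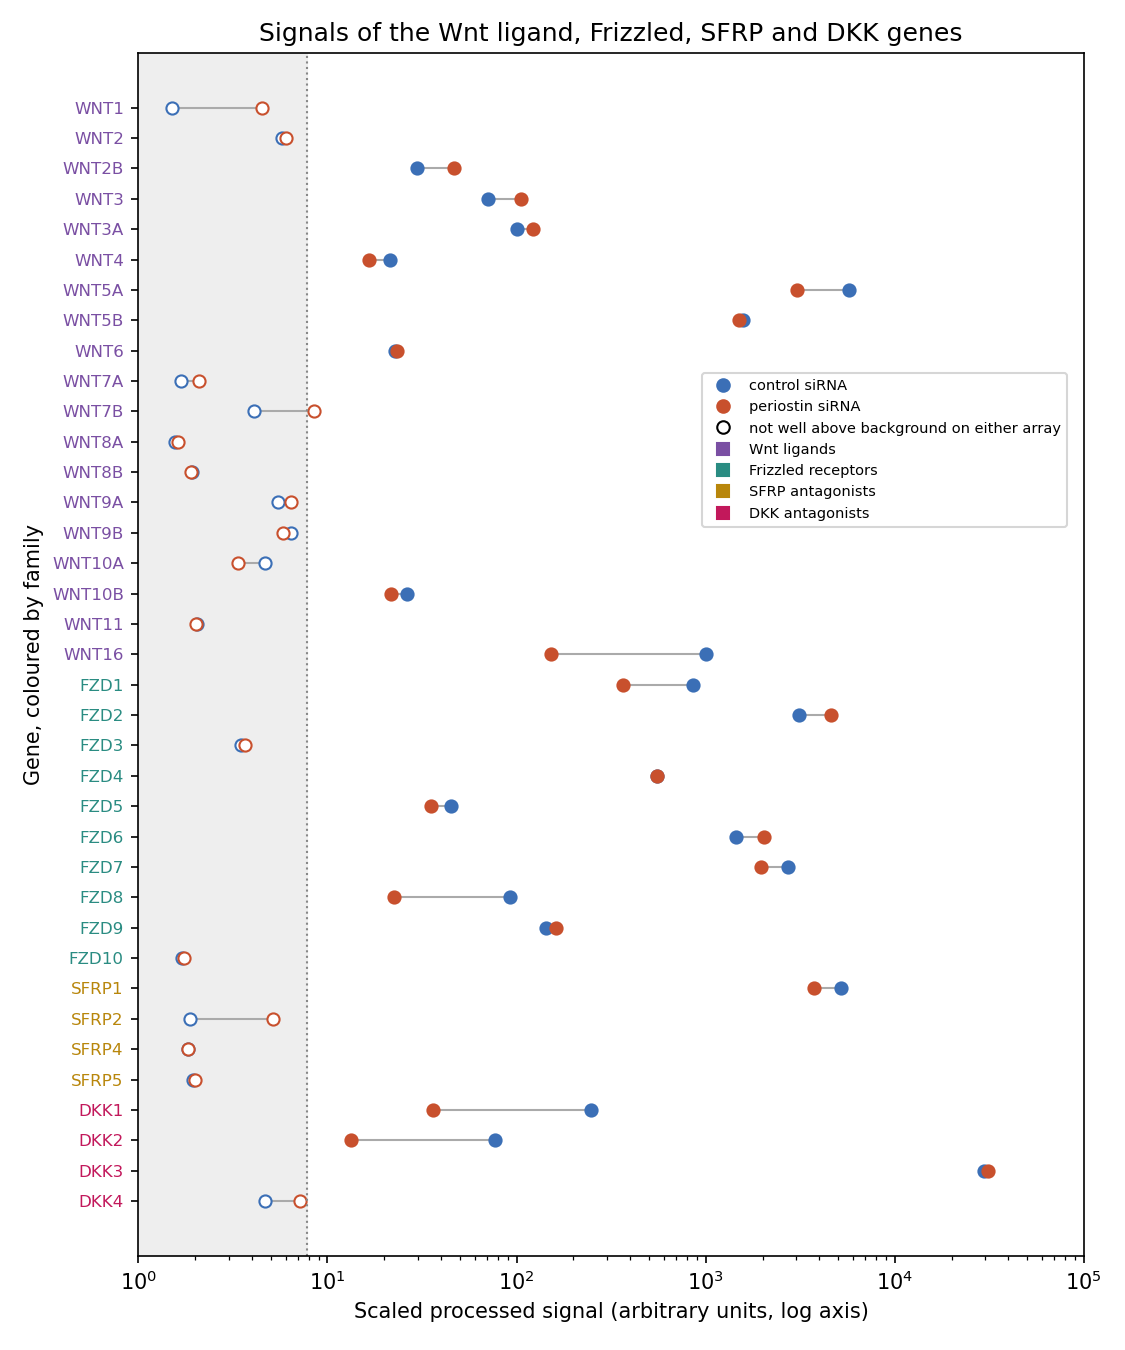
Scaled processed signal (log axis, arbitrary units) of the 37 genes on the control siRNA array (blue) and the periostin siRNA array (red), using the brightest probe of each gene. The grey band ends at 7.77, where signals well above background began on the periostin siRNA array, and open circles mark the 16 genes not well above background on either array; DKK1, DKK2, FZD8 and WNT16 have the longest lines among the filled circles.

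DNA upstream of the genes that fell is shown first, since 3 of the 4 have a promoter entry in RefSeq (GRCh38.p14). Each run is the 250 bases before the annotated transcription start, read 5' to 3' on the gene's strand. DKK1 lies at chr10:52314031-52314280 on the plus strand, FZD8 at chr10:35642297-35642546 on the minus strand and WNT16 at chr7:121328750-121328999 on the plus strand. Capitals mark any match, on either strand, to the TCF/LEF core (CTTTGA or CTTTGT), the AP-1 site (TGANTCA), the TEAD site (GGAATG), the GC box (GGGCGG) and the TATA box (TATAAA), and no matches overlapped.
DKK1: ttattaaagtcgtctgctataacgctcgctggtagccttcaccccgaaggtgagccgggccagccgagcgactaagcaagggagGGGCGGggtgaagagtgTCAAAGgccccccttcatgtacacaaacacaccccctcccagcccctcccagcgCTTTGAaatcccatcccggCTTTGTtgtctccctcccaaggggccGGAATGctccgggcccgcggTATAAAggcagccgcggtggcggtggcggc
FZD8: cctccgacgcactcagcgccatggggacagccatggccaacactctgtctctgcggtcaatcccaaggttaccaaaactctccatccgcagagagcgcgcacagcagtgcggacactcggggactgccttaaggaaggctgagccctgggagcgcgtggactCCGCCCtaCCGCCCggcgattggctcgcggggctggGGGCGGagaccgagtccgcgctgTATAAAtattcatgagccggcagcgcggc
WNT16: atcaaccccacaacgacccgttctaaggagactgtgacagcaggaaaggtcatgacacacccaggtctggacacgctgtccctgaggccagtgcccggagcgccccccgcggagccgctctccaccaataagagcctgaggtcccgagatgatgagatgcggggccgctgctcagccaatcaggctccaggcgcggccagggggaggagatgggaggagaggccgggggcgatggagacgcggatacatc

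The DKK1 window held 3 TCF/LEF cores, starting at positions -149, -95 and -76 before the start, and 3 or more of them were present in 0.584% of the 35116 promoters searched. At least 1 such core was present in 22.8% of all promoters and in 3 of the 28 promoter entries of the Wnt family genes, those of DKK1, FZD1 and WNT8B. DKK1 also held a GC box at -166, a TEAD site at -50, a motif present in 11.9% of all promoters, and a TATA box at -30. FZD8 held GC boxes at -88, -80 and -52 and a TATA box at -29, and TATAAA was present in 10.7% of all promoters. The GC box was present in 23 of the 28 entries (82.1%) and in 42.6% of all promoters. The WNT16 window held none of these letters, and AP-1 sites, present in 6.57% of all promoters, were in none of the 28 entries. The GC content was 62.8% for DKK1, 65.2% for FZD8 and 64.8% for WNT16, against a median of 58% for all promoters. These matches describe letters in a window, and binding of a factor was not measured.

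Among the Wnt ligands, WNT16 was the one of 9 measured genes past 3-fold. WNT16, a ligand known to be secreted by damaged or senescent fibroblasts, had a signal of 1003 with control siRNA and 153 with periostin siRNA (log2 ratio -2.72, spot error 0.20). The periostin siRNA array was the lower, and its spot still stood 148.5 units over the local background, against a median of 6 units for the 308 negative control spots of that array and 11 units at the top of their central 95%. It was also the family member whose fall stayed past 3-fold after a second background correction, one that shrinks the ratios of dim spots most.

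WNT5A, the ligand best known for signalling through ROR2 without beta-catenin, had a signal of 5712 with control siRNA and 3045 with periostin siRNA (log2 ratio -0.91, spot error 0.20). It was the lower with periostin siRNA but remained within 2-fold, except with scaling on the median (-1.04). WNT5B, its close relative, gave 1576 and 1497 (log2 ratio -0.07), a difference smaller than the spot error of 0.20.

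The 3 ligands WNT2B, WNT3 and WNT3A had signals higher with periostin siRNA by more than their spot error, each within 2-fold. WNT2B, a ligand of the embryonic lung field, gave 29.9 with control siRNA and 46.7 with periostin siRNA (log2 ratio 0.64, spot error 0.23). WNT3 gave 70.8 and 106 (log2 ratio 0.58, spot error 0.21). WNT3A, the ligand most often used to activate beta-catenin in culture, gave 100.2 and 122 (log2 ratio 0.29, spot error 0.21) with 1 probe, while its second probe was not above background on either array. The WNT3A ratio was 0.16 with scaling on the median and 0.11 after the second background correction, both smaller than its spot error. The remaining 3 ligands were dim. WNT4 and WNT10B were lower by more than their spot error, each within 2-fold, and WNT6 was nearly level. WNT4, a ligand of kidney and gonad development, gave 21.4 and 16.6 (log2 ratio -0.37, spot error 0.30). WNT6 gave 22.8 and 23.5 (log2 ratio 0.04), and WNT10B, a ligand of bone and fat differentiation, gave 26.3 and 21.7 (log2 ratio -0.28, spot error 0.25). After the second background correction the ratios of WNT4 (-0.09) and WNT10B (-0.07) were smaller than their spot errors. So was that of WNT10B without scaling (-0.23). The median log2 ratio of the 9 ligands was -0.07.

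WNT10A, printed 10 times, shows what can be read from a gene under the background. None of its 10 spots was well above background on either array, and the log2 ratios of single spots ran from -1.97 to 0.76 with an SD of 0.89. In 2 of the 10 spots the ratio alone would have passed 3-fold.

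Of the 8 measured Frizzled receptors, FZD8 was the one past 3-fold. FZD8, a receptor that pairs with LRP6 for beta-catenin signalling, had a signal of 92.3 with control siRNA and 22.6 with periostin siRNA (log2 ratio -2.03, spot error 0.23). Its spot stood 108 units over the local background on the control array and 28 units on the other. FZD5, its closest relative, was printed 10 times and gave a mean signal of 45.1 and 35.3 (log2 ratio -0.35, SD 0.16 over 10 spots). The spots of FZD5 ran from 38.6 to 49.0 with control siRNA and from 31.1 to 39.2 with periostin siRNA, so that they overlapped slightly.

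The closely related receptors FZD1, FZD2 and FZD7 differed in direction. FZD1 gave 855 with control siRNA and 367 after knockdown (log2 ratio -1.22, spot error 0.20), which was past 2-fold and short of 3-fold. FZD7 gave 2723 and 1962 (log2 ratio -0.47), whereas FZD2, which binds WNT5A, gave 3118 and 4600 (log2 ratio 0.56). The distance of FZD2 from FZD1 and from FZD7 was larger than their spot errors of 0.20.

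FZD4, the receptor of norrin in blood vessel growth, had nearly the same signal on both arrays, 554 and 555 (log2 ratio 0.0039, spot error 0.20). FZD6, a receptor of planar cell polarity, gave 1443 with control siRNA and 2035 with periostin siRNA (log2 ratio 0.50). FZD9 gave 143 and 163 (log2 ratio 0.19, spot error 0.21). Of the 8 receptors, 4 had a lower and 4 a higher signal with periostin siRNA (5 and 3 with scaling on the median, FZD4 changing sides), and their median log2 ratio was -0.17.

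**Figure D2:**
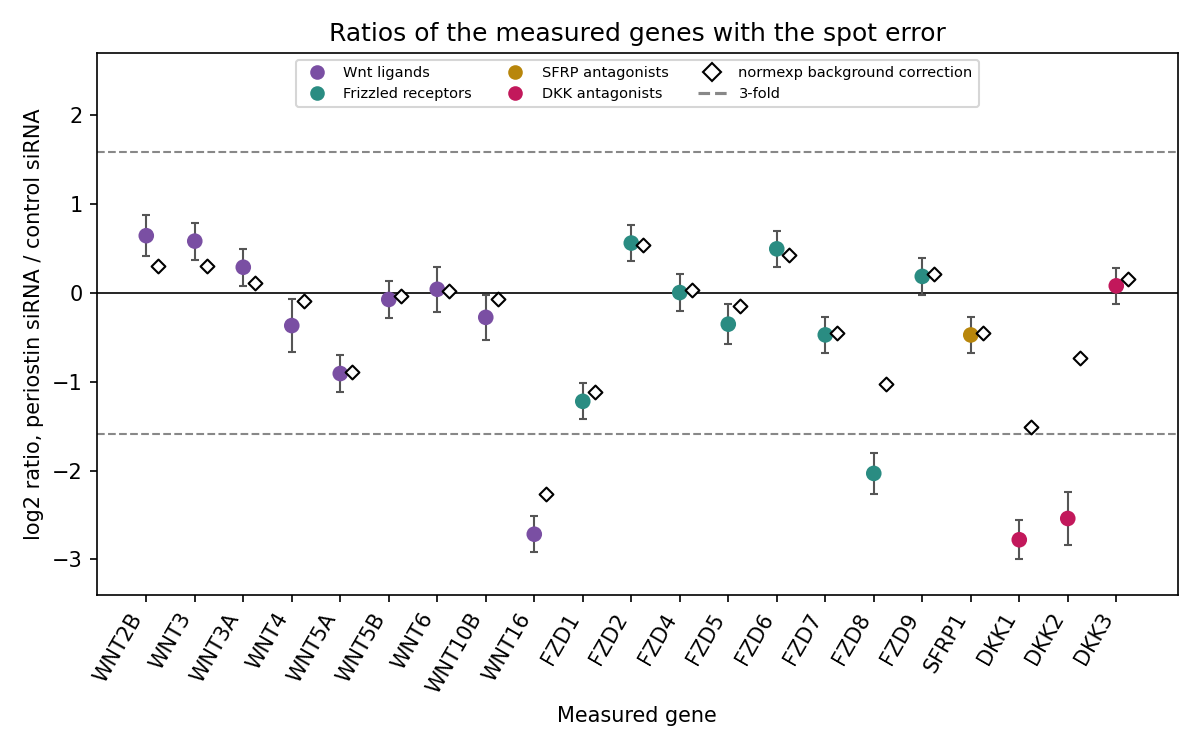
Log2 ratio of periostin siRNA over control siRNA for the 21 measured genes (filled circles, coloured by family) with the propagated spot error as bars, and the ratio after normexp background correction (open diamonds). Dashed lines mark 3-fold; 4 filled circles lie under the lower line, and of the diamonds only that of WNT16 does.

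The DKK genes held 2 of the 4 members past 3-fold. DKK1, which blocks the LRP co-receptors and is itself a target of beta-catenin, had a signal of 247 with control siRNA and 36.0 with periostin siRNA (log2 ratio -2.78, spot error 0.22). DKK2, which binds the same co-receptors, gave 77.3 and 13.3 (log2 ratio -2.54, spot error 0.30). Both were lower with periostin siRNA. The spot of DKK1 stood 203 units over the local background on the control array and 40 units on the other. That of DKK2 stood 69 and 22 units over it. For both genes these distances differed by a smaller factor than the processed signals. The negative control spots of the periostin siRNA array reached 11 units at the top of their central 95%.

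DKK3, a divergent member of the family that is not known as an LRP antagonist, had a signal of 29552 with control siRNA and 31226 with periostin siRNA (log2 ratio 0.08, spot error 0.20). A second DKK3 probe gave 7466 and 7353 (log2 ratio -0.02). Neither probe differed by more than its spot error, so that DKK3 was nearly level where DKK1 and DKK2 were lower. With scaling on the median its brighter probe gave -0.05.

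SFRP1, which binds Wnt ligands, was the measured member of its family. Its 10 spots gave a mean signal of 5226 with control siRNA and 3764 with periostin siRNA (log2 ratio -0.47, SD 0.05 over 10 spots). The spots ran from 5010 to 5421 on the control array and from 3623 to 3895 on the other and did not overlap, at a difference within 2-fold.

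On the periostin siRNA array the 4 genes past 3-fold differed in how far their spots stood over the local background. The distance was 148.5 units for WNT16, 40 for DKK1, 28 for FZD8 and 22 for DKK2. Normexp correction started from the median pixel and local background of each spot, not from the processed signal. It estimates the background from all spots and adds 50 units to each. After it the log2 ratio was -2.27 for WNT16, -1.51 for DKK1, -1.03 for FZD8 and -0.74 for DKK2. All 4 kept their direction, and WNT16 alone stayed past 3-fold. The 50 units that this correction adds shrink the ratio of a dim spot most. The part of the different input signal was not separated from that of the 50 units. Losing 3-fold was thus tied to low signal, and these values cannot rank how firm the falls were. That correction also lowered the share of all measured genes lower by more than 3-fold to 1.19%.

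**Figure D3:**
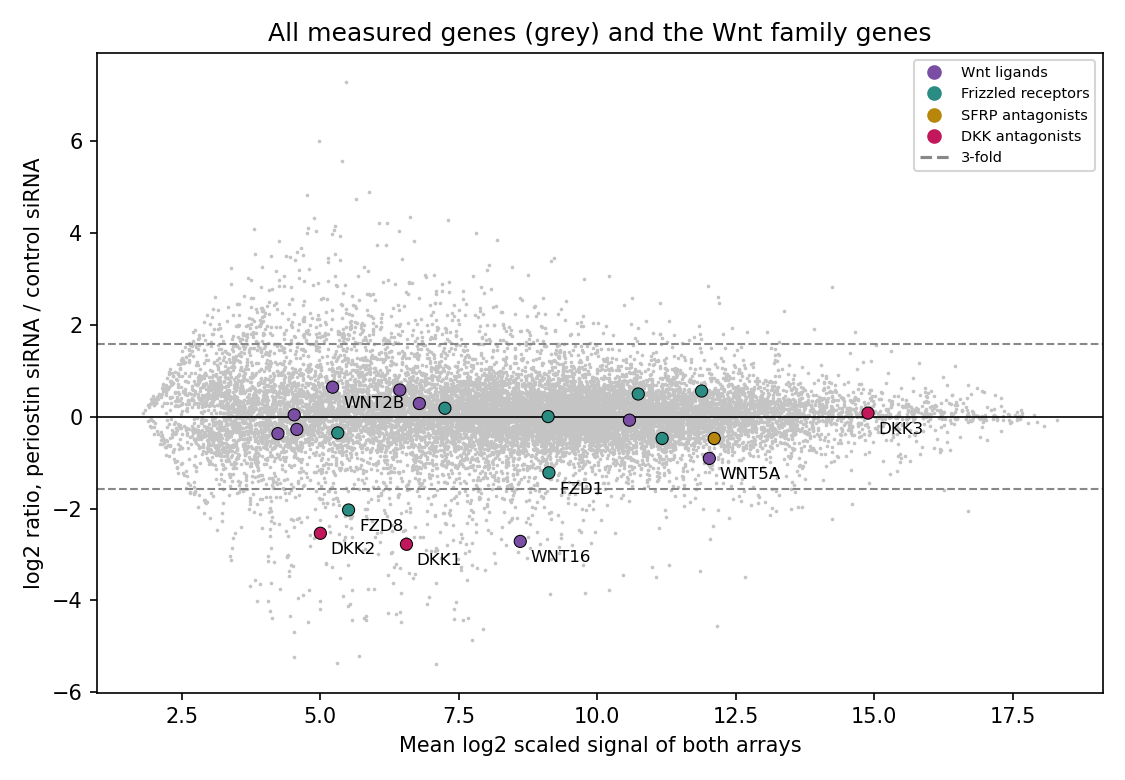
Log2 ratio of periostin siRNA over control siRNA against the mean log2 scaled signal of both arrays for all 16052 measured genes (grey) and the 21 measured family genes (coloured). Dashed lines mark 3-fold; the grey cloud is wider at low signal, and DKK1 (-2.78), WNT16 (-2.72), DKK2 (-2.54) and FZD8 (-2.03) lie under the lower line.

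The rest of the pathway was read from 8 lists with 122 distinct genes, of which 120 were named on the array and 103 measured. Of the 103, 2 (1.94%) were lower and 3 (2.91%) higher by more than 3-fold, shares close to the 2.75% and 3.37% of all measured genes. The median log2 ratio was 0.10. With scaling on the median RECK (-1.64) and APC2 (-1.61) also passed 3-fold, giving 4 lower and 3 higher.

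Co-receptors and alternative receptors were all measured (16 of 16), with 0 lower and 1 higher by more than 3-fold and a median log2 ratio of 0.37. That median was 0.20 without KREMEN2, whose value is a bound, and 0.16 after normexp correction. The gene that rose was ROR2, the receptor of WNT5A, with 77.7 with control siRNA and 298 with periostin siRNA (log2 ratio 1.94, spot error 0.21). It thus stood opposite in direction to WNT5A at -0.91. LRP5, a co-receptor bound by DKK1 and DKK2, gave 114 and 334 (log2 ratio 1.54, spot error 0.21), just short of 3-fold and just past it without scaling (1.59), whereas LRP6 gave 826 and 760 (log2 ratio -0.12). KREMEN1, a DKK receptor, gave 910.3 and 1954, which was 2.15-fold higher, with a log2 ratio of 0.88 at its second probe. RECK, which with ADGRA2 forms a receptor complex for WNT7 ligands, had -1.52 with 1 probe and 0.26 with the other, so its direction depended on the probe. The brightest of the list were RYK (0.09), ADGRA2 (0.53) and SDC1 (-0.45).

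Genes of Wnt secretion and acylation were measured in 2 of 3 cases, with 0 past 3-fold and a median log2 ratio of 0.16 (0.03 with scaling on the median). PORCN, which adds the lipid to Wnt proteins, gave 2838 and 4297 (log2 ratio 0.60). WLS, which carries Wnt proteins to the surface, gave 14492 and 11936 (log2 ratio -0.28). NOTUM, which removes the lipid, was not above background.

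Among the other antagonists 7 of 13 were measured, with 1 lower and 0 higher by more than 3-fold and a median log2 ratio of -0.63. TRABD2A, a membrane protease that cuts Wnt proteins, fell from 443 with control siRNA to 105 with periostin siRNA (log2 ratio -2.08, spot error 0.21), and its second probe gave -2.20. TPBG gave 3685 and 1659 (log2 ratio -1.15), past 2-fold only. FRZB, the SFRP3 gene, ran the other way at 228 and 421 (log2 ratio 0.88, spot error 0.20), and the bright SERPINF1 and IGFBP4 gave -0.64 and -0.63.

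In the R-spondin axis, whose ligands and LGR receptors set how many Frizzled receptors stay on the membrane, 4 of 9 genes were measured. None passed 3-fold and the median log2 ratio was -0.07 (-0.20 with scaling on the median). LGR4 gave -0.22, LGR6 -0.07 and RSPO3 -0.07. ZNRF3, a ligase that removes Frizzled receptors from the surface, gave 0.25 and, with its second probe, 0.96.

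No cytoplasmic gene of the pathway passed 3-fold in either direction, except APC2 with scaling on the median. Of 26 listed, 24 were named on the array and 23 measured, with a median log2 ratio of -0.01 (-0.14 with scaling on the median and 0.03 without scaling). CTNNB1, which encodes beta-catenin, gave 4786 and 4644 over 10 spots (log2 ratio -0.04, SD 0.04), and a second probe gave -0.24. The kinase gene GSK3A gave -0.01 and DVL1, a relay protein under Frizzled, -0.45. APC2, a relative of the scaffold APC, was the lowest of the list at 159 and 57.0 (log2 ratio -1.48, spot error 0.21).

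Of the nuclear effectors 15 of 16 were measured, 14 of them with a log2 ratio above 0 (9 with scaling on the median), and the median was 0.45, or 0.12 after normexp correction and 0.25 with the mean over probes. One was higher by more than 3-fold, TLE3, a Groucho-type co-repressor, which rose from 44.9 with control siRNA to 269 with periostin siRNA (log2 ratio 2.58, spot error 0.21). CTNNBIP1, which keeps beta-catenin from TCF factors, gave 0.89 and, with its second probe, 0.35. LEF1 gave 0.45 and CHD8 0.09.

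Of 23 genes in common use as readouts of beta-catenin, 16 were measured, with 1 lower and 0 higher by more than 3-fold and a median log2 ratio of 0.13, or -0.0064 with the mean over probes and 0.00059 with scaling on the median. FGF18 was the lower one. It had a signal of 23.9 with control siRNA and was not well above background with periostin siRNA (6.18), a bound of at least 3.07-fold lower, against the lowest signal well above background, and fell short of 3-fold without scaling (-1.58). AXIN2, the most widely used of these readouts, gave 43.2 and 59.0 (log2 ratio 0.45), and -0.33 with its second probe. CCND1 gave -0.07, CD44 0.33 and, with its second probe, 1.20. JUN was 2.83-fold higher, at 2530 and 7158, while FOSL1 gave -1.23. FGF9 was 2.54-fold higher, at 127 and 322 (log2 ratio 1.34, and 1.39 with its second probe). Of the 16, 7 lay below 0 and 9 above, or 8 and 8 with scaling on the median.

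In the planar polarity and calcium branch 25 of 27 genes were measured, with 0 lower and 1 higher by more than 3-fold and a median log2 ratio of 0.19 (0.06 with scaling on the median). DAAM2, a formin that links Dishevelled to the actin skeleton, rose from 97.3 with control siRNA to 630 with periostin siRNA (log2 ratio 2.69, spot error 0.21). PRICKLE1, with a log2 ratio of 1.54, and CELSR2, which was 2.83-fold higher, were both short of 3-fold. CELSR2 was dim, at 11.9 with control siRNA and 33.7 with periostin siRNA (spot error 0.31). After normexp correction its log2 ratio was 0.43, against 1.45 for PRICKLE1. The brightest were CELSR1 (0.04, and -0.99 with its second probe), SCRIB (0.18) and RHOA (-0.43). After normexp correction DAAM2 (2.12) and TRABD2A (-1.59) remained past 3-fold, and TLE3 (1.41), ROR2 (1.38) and FGF18 (-0.34) did not.

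**Figure D4:**
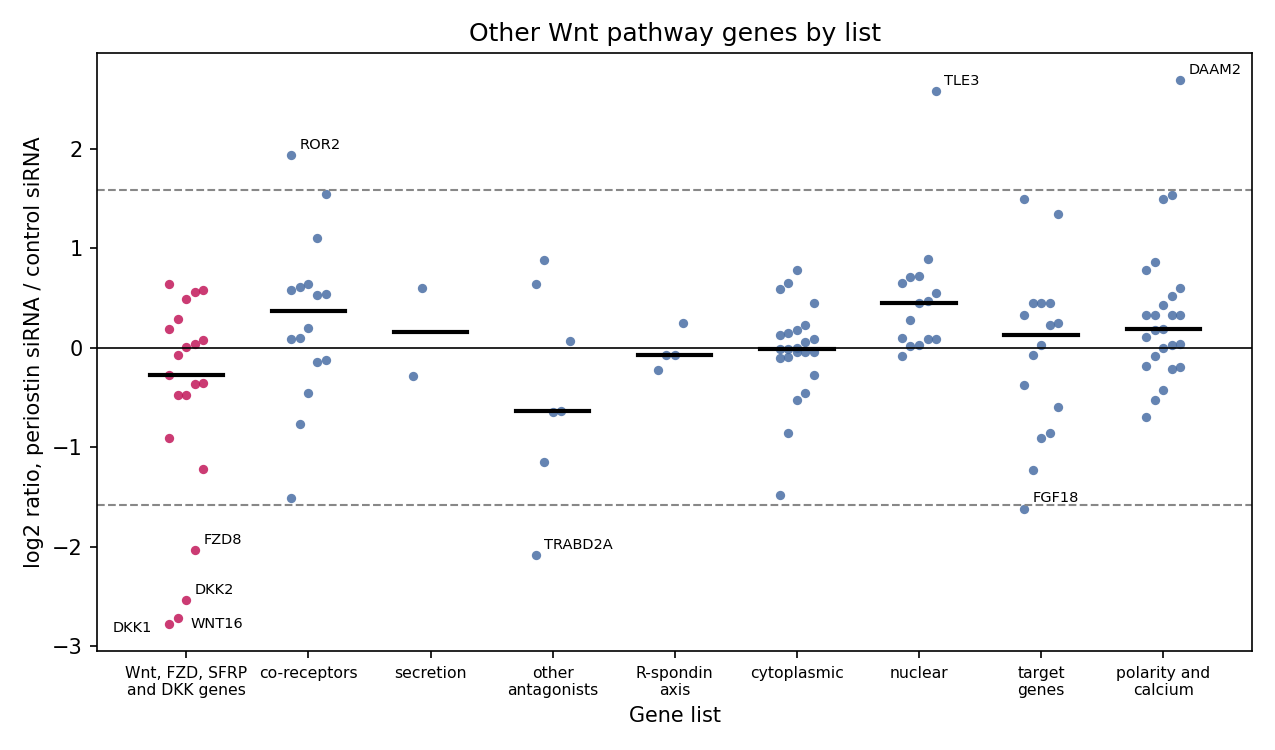
Log2 ratio of periostin siRNA over control siRNA for the 21 measured family genes (pink) and the measured genes of the 8 pathway lists (blue), with the median of each as a black bar and 3-fold as dashed lines. Genes past 3-fold are named, FGF18 being drawn at its bound; the 4 family genes past 3-fold are all lower, and of the 5 pathway genes 2 are lower and 3 higher.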

How the data were processed

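Cy3-labelled RNA of MRC-5 cells was hybridised to single-colour Agilent SurePrint G3 Human GE 8x60K v2 arrays, 1 array per condition. The authors deposited scanner intensity values and quality flags per spot (Feature Extraction 11.5.1.1 in the file headers, 12.0.3.1 in the submitters' processing notes), and a table of normalized intensity values. The latter was a constant factor per array (3.65 for control siRNA, 3.54 for periostin siRNA) times the scanner intensity over 49697 probes printed once, and the method was not given in the sources used here.

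Processed signals were scaled to a common 75th percentile (372 and 383 before scaling), spots of a probe were averaged, and the brightest probe stood for a gene. A gene was measured if the software's flag placed it well above background on at least 1 array; on 1 array alone the ratio is a bound. In all, 58.0% and 58.9% of spots carried that flag, and 0 were saturated. Gene names came from RefSeq (GRCh38.p14) by accession, for 65.1% of spots. The 3-fold threshold follows the study. With 1 array per condition no test, SD or p-value between cultures could be had, and the array number limits the precision. Every gene of the family was named, and of the pathway lists those past 3-fold and the 3 brightest of each. LRP5, LRP6, KREMEN1, KREMEN2, RECK, FRZB, RSPO3, APC2, AXIN2, FGF9, FOSL1, PRICKLE1 and CELSR2 were chosen after their values were seen. Genes and lists were chosen with earlier results of these data known. One immune marker is not reported here. The casein kinase genes CSNK1A1 and CSNK1E of the lists could not be named through their accessions. Python 3.11.15, pandas 2.3.3, R 4.3.3 and limma 3.58.1 (normexp, offset 50) were used, and the steps were tested on simulated data. The simulation changed only genes with a control signal above the 75th percentile, so changes of dim genes and bounds were not covered.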

Additional observations from a re-analysis of the deposited data

How the results depend on the processing

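No paired analysis was possible because a condition held 1 array only, which also left no replicate to leave out. Besides the values given, 9 alternatives were run: normexp background correction, scaling on the median, quantile normalization, no scaling, scaling on spots well above background, the authors' normalized table, the mean over probes, a restriction to genes above background on both arrays, and leaving out spots with outlier marks. Under normexp correction POSTN went to -2.99, the family genes lower by more than 3-fold from 4 to 1, their median log2 ratio to -0.069, and the pathway genes past 3-fold from 5 to 2. Scaling on the median moved the family median to -0.40, the medians of all 8 pathway lists, the pathway genes past 3-fold to 7, and the median of all genes from 0.06 to -0.07. The count of family genes lower by more than 3-fold was 4 in the other 8 alternatives, and the count higher was 0 in all 9. Several of these could hardly change the counts. Every measured family gene was above background on both arrays, and none carried an outlier mark. The mean over probes altered DKK3 only, and the authors' table was a constant factor per array. Of 189 single-gene values, 6 moved by more than the spot error, all under normexp correction (DKK1, DKK2, FZD8, WNT16, WNT2B and WNT3). The alternatives that could hardly change the counts could hardly move these values either. The sign of the ratio turned for DKK3 under scaling on the median, and for FZD4 and WNT6 under scaling on the median and quantile normalization, each with a ratio near 0. Low signal limits DKK2 and FZD8, whose spots on the periostin siRNA array were 22 and 28 units over the local background.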
